A study of Mus musculus with 10 samples.

Results

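Livers of mice that carried either of 2 hairpins against Sod2 were set against livers of littermates without a hairpin, over 10 of the 10 arrays of the series. The arrays were taken by their titles: 4 controls, 3 livers with shRNA 1 and 3 livers with shRNA 2. Each gene was described by the mean of both hairpin groups, weighted equally, minus the control mean, across 13308 genes tested of 22180 genes with a transcript cluster of their own. Stress genes came from 23 lists. They held 552 genes, of which 502 were on the array and 480 were tested, and the results below turn on the 50 of these that differed from control in the same direction in both lines by at least 0.2 on the log2 scale.

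The controls had the genotype Rosa26-rtTA, and the 6 other livers carried Rosa26-rtTA with SOD2 shRNA 1 or with SOD2 shRNA 2. rtTA is a transcription factor that turns on a linked construct in the presence of doxycycline, and expression from Rosa26 is not limited to the liver. The dams ate chow with doxycycline at 625 mg/kg, which placed the knockdown between day 0 and day 12.5 in utero. The livers, of males 4 weeks old, were taken long after that window, and RNA came from 25 mg of rinsed tissue. The submitters call the hairpin livers adapted, and that name is used here. The controls were littermates, 3 in the cohort of shRNA 2 and 1 in that of shRNA 1, and the labels do not say which, so hairpin and cohort cannot be told apart. The labels do not state that each liver is from a separate animal, so each p-value measures only how far these samples spread.

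Sod2 encodes the superoxide dismutase of the mitochondrial matrix, which turns superoxide into hydrogen peroxide. Peroxide is removed by catalase, peroxiredoxins and glutathione peroxidases, which draw on NADPH, and oxidants or electrophiles release the transcription factor NRF2 from KEAP1 to induce many detoxifying enzymes. Mitochondrial and endoplasmic reticulum faults are known to act through ATF4, ATF5 and ATF6, which induce amino acid, chaperone and protein disposal genes.

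The median log2 level per array was 4.06 to 4.17, and the correlation across genes was 0.989 to 0.994 for any pair of arrays. Albumin (Alb) lay between 13.7 and 13.8 and transthyretin (Ttr) between 13.4 and 13.6 in the 10 arrays, as hepatocyte markers. The residual spread had 7 degrees of freedom, and with so few arrays every value below is of limited precision. A pair of arrays stood apart from the others of their own group in sex-biased liver genes. The mean of 12 female-biased genes, relative to the controls, was 0.84 in control 4 against -0.41 to -0.19 in the other controls. It was 2.01 in shRNA 2 replicate 3 against 0.40 and 0.61 in the other shRNA 2 livers. The 3 shRNA 1 livers lay at 0.92 to 1.07, all above control 4. Every adapted liver lay above controls 1 to 3. A score of 10 circadian clock genes ran from -0.97 to 0.91 in controls, from -0.43 to 1.10 in shRNA 1 livers and from -1.43 to 0.49 in shRNA 2 livers, so the score varied within every group. The stress genes that met the rule on both lines were counted again without control 4 and shRNA 2 replicate 3. They were also counted with the clock score as a covariate.

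Sod2 itself was measured first, since it was the gene knocked down before birth. Its level was 10.38, 10.49, 10.33 and 10.33 in controls 1 to 4, 10.43, 10.43 and 10.32 in shRNA 1 livers and 10.34, 10.47 and 10.24 in shRNA 2 livers. The 3 groups overlapped. The adapted mean differed from the control mean by -0.01 (standard error 0.08, 95% interval -0.18 to 0.15, limma adjusted p = 0.98), and an exact two-sided permutation test over 210 splits gave p = 0.819. How far Sod2 was lowered before birth cannot be read from these livers.

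Across all genes, 1 gene passed an adjusted p of 0.05 as higher in adapted livers, 0.00751% of those tested, and 0 passed as lower, 0% of those tested. The gene was Ctse, which encodes the aspartic protease cathepsin E, and it rose by 1.10 with a standard error of 0.07 (limma, Benjamini-Hochberg adjusted p = 4.47e-05). Its level was 3.90, 4.03, 4.03 and 3.92 in controls, 3.89, 3.92 and 3.79 in shRNA 1 livers and 6.33, 6.24 and 6.24 in shRNA 2 livers. Only the 3 shRNA 2 livers stood above the controls. By line the difference was -0.10 for shRNA 1 and 2.30 for shRNA 2 (adjusted p = 6.68e-08), so Ctse was not a gene that differed in the same direction in both lines, and with all adapted livers as 1 group its adjusted p was 0.626. Ctse is also a marker of gallbladder and mucous epithelium: the mean of 6 other such markers, relative to controls, was -0.22 to 0.10 in shRNA 2 livers, -0.25 to -0.14 in shRNA 1 livers and -0.09 to 0.08 in controls. Without adjustment, 647 genes (4.86%) were higher and 467 genes (3.51%) lower at p under 0.05.

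The rule on both lines took 545 higher genes of all genes tested (4.10%) and 393 lower genes (2.95%), together 7.05%. Among the stress genes it took 30 higher (6.25%) and 20 lower (4.17%), together 10.4%. The members and lists were chosen with earlier results of these data known. The shares of stress genes, here and for each list below, are therefore no independent comparison with all genes. The lines share their 4 controls, so a low or high control moves both differences at once and the shared direction is no independent repeat. The 30 higher genes had mean differences of 0.21 to 1.47 and the 20 lower genes of -1.78 to -0.23. None of the 50 passed the adjusted threshold: their adjusted p-values lay between 0.17 and 0.873 in limma, and 37 had an unadjusted p under 0.05. Of all 480, 45 (9.38%) were higher and 22 (4.58%) lower at that level, against 4.86% and 3.51% of all genes, and 0 passed after adjustment in limma. Just inside the limit of 0.2 stood Pdk1, at 0.23 for shRNA 1 and 0.20 for shRNA 2, and Btg2, at -0.20 and -0.55. Just outside it stood Stat2, at -0.1997 and -0.28, and Glrx3, at 0.1977 and 0.23. Of the 50, 15 met the rule in every alternative analysis in which they were tested: Atf5, Fgf21, G6pc, Glrx, Gstt1, Gstt2, Gstt3, Hao2, Maob, Mthfd2, Nupr1, Oasl2, Pgd, Retreg1 and Syvn1.

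**Figure D1:**
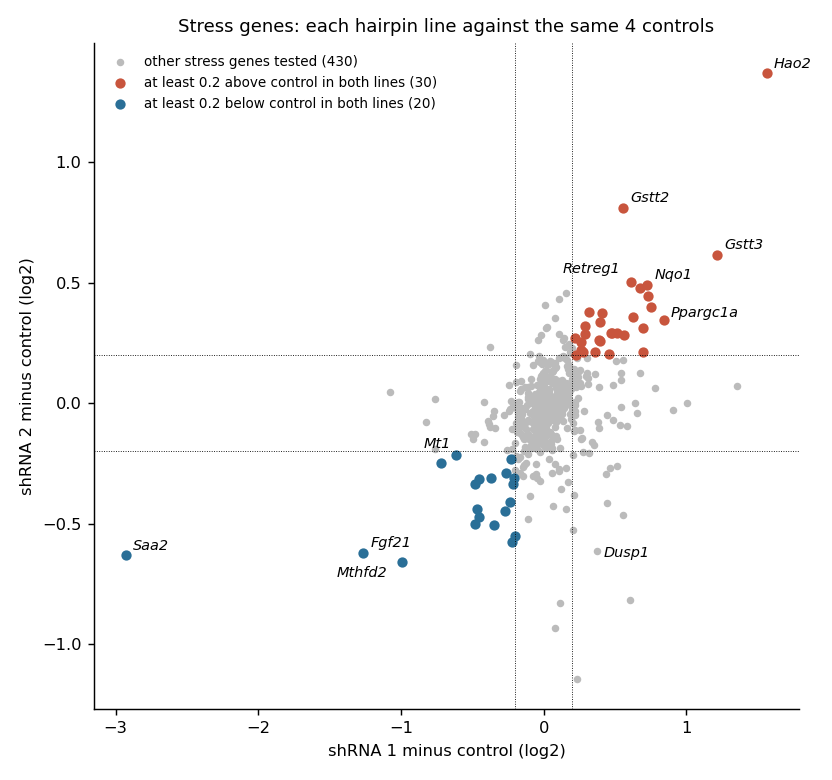
Difference from the same 4 controls in shRNA 1 livers (x axis) and shRNA 2 livers (y axis), on the log2 scale, for the 480 stress genes tested, with dotted lines at the limit of 0.2. The 30 genes above control in both lines are red, the 20 below control in both are blue, and Hao2 and Saa2 stand farthest out on each side while Dusp1 lies above control in 1 line and below it in the other.

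A stricter view asked for all 6 adapted livers above or below all 4 controls. This held for 138 of all genes tested on the higher side (1.04%) and 112 on the lower side (0.842%), and for 8 (1.67%) and 4 (0.833%) of the stress genes. The 8 were Retreg1, Gstt1, Gstt3, Sgk1, Maob, Adm, Pdk1 and Ifit2. The 4 were Syvn1, Slc7a1, the proteasome lid subunit Psmd13 at -0.12 and the fibrinogen chain Fga at -0.11. The count on the higher side became 15, 16, 14 and 23 on leaving out control 1, control 2, control 4 or shRNA 2 replicate 3. The count on the lower side became 9, 11, 7, 10 and 8 on leaving out control 1, control 4, shRNA 1 replicate 2, shRNA 2 replicate 2 or shRNA 2 replicate 3. Fewer arrays make such a separation easier to reach for any gene, and the share over all genes was not counted again with these arrays left out. The higher counts are therefore no result about the stress genes.

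Over all 480 stress genes the median difference was 0.01, against 0.01 over all genes tested, and 51.9% had a higher mean in adapted livers against 52.0%. At any size, 165 stress genes (34.4%) had a higher mean in both lines, against 35.3% of all genes, and 141 (29.4%) a lower one, against 31.7%. The stress genes therefore had no common direction, and the lists differed from each other. The share of members above control in both lines was highest for interferon-stimulated genes, with 5 of 27 in the analysis of all arrays. It was next highest for glutathione synthesis and use, with 4 of 23. The share below control in both lines was highest for ATF4 targets, with 7 of 27, followed by the list for unfolded proteins in the endoplasmic reticulum, with 4 of 27. Over all genes tested the shares were 4.10% above and 2.95% below, and the counts of each list that follow are to be read beside these.

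**Figure D2:**
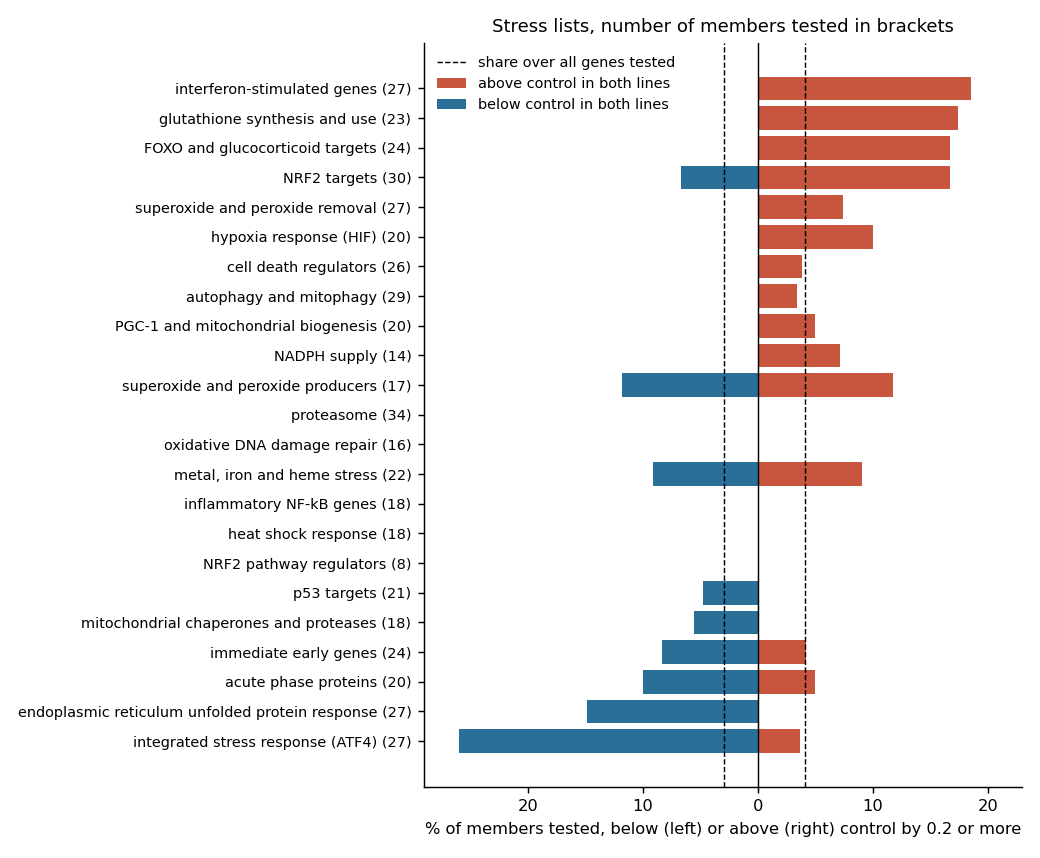
Share of the members tested of each of the 23 stress lists (rows, number of members tested in brackets) that lay at least 0.2 above control in both lines (red, to the right) or at least 0.2 below (blue, to the left), in percent. The dashed lines give the same share over all genes tested, 4.10% and 2.95%, and ATF4 targets reach farthest to the left with 7 of 27 members.

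The tested enzymes that remove superoxide and peroxide differed little from control. Of 27 members 2 were above control in both lines and 0 below, and the median difference was 0.08. The peroxiredoxins Prdx1, Prdx5 and Prdx6 had no transcript cluster of their own and were not tested. Sod1, the cytosolic dismutase, stood at 0.05, catalase (Cat) at 0.08 and the glutathione peroxidase Gpx1 at -0.00. The 95% interval was -0.13 to 0.23 for Sod1, -0.09 to 0.26 for Cat and -0.18 to 0.18 for Gpx1. Glrx, a glutaredoxin that reverses the coupling of glutathione to proteins, was at 8.64, 8.80, 8.71 and 8.29 in controls, 9.10, 8.96 and 8.99 in shRNA 1 livers and 9.09, 9.08 and 8.79 in shRNA 2 livers. All but 1 adapted liver lay above every control, and the difference was 0.39 (standard error 0.11, adjusted p = 0.382). Prdx3, the peroxiredoxin of the mitochondrial matrix where Sod2 acts, was at 9.54, 9.72, 9.65 and 9.39 in controls, 9.74, 9.91 and 9.73 in shRNA 1 livers and 9.85, 10.01 and 9.66 in shRNA 2 livers. Only shRNA 2 replicate 3 lay within the range of the controls, and the difference was 0.24 (standard error 0.10, adjusted p = 0.521). It lay between 0.18 and 0.29 over the alternatives, and at 0.18, without control 4, Prdx3 no longer met the rule.

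NRF2 targets had higher means more often than all genes, chiefly in shRNA 1 livers. Of 30 members 23 had a higher mean in adapted livers, 76.7% against 52.0% of all genes, the median was 0.17, and 12 had an unadjusted p under 0.05 on the higher side and 1 on the lower side. The median was 0.30 for shRNA 1 and 0.04 for shRNA 2. The mean level of the list, relative to controls, was 0.22 to 0.40 in shRNA 1 livers, -0.02 to 0.05 in shRNA 2 livers and -0.08 to 0.07 in controls, so shRNA 2 livers lay within the range of the controls. Both lines by the rule held 5 higher members (Ces1g, Pgd, Nqo1, Ces2g and Gstm4) and 2 lower (Osgin1 and Gstp1). Of the 5, only Pgd met the rule in every alternative. Without control 4 Ces2g was lost, at a mean difference of 0.17. Without control 1 Gstm4 was lost at 0.13, and with it Ces1g and Ces2g. Without control 4 and shRNA 2 replicate 3 together Nqo1 was lost at a mean of 0.36, because the limit applies to each line. Of the lower 2, neither met the rule without control 2.

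Nqo1, a quinone reductase and the usual marker of NRF2 activity, was at 5.51, 5.64, 5.28 and 4.86 in controls. It was at 6.32, 5.94 and 5.88 in shRNA 1 livers and at 5.42, 5.83 and 6.19 in shRNA 2 livers. shRNA 2 replicate 1 lay among the controls, the other 5 adapted livers lay above them, and the difference was 0.61 (standard error 0.18, adjusted p = 0.427). Ces1g, a carboxylesterase, was at 9.95 to 10.67 in controls, 10.98 to 11.02 in shRNA 1 livers and 10.44 to 10.56 in shRNA 2 livers. Its difference was 0.70 for shRNA 1 and 0.21 for shRNA 2, and control 4 lay above every shRNA 2 liver. Osgin1, an oxidative stress-induced growth inhibitor, stood lower at -0.72 and -0.25, and its lowest value was shRNA 1 replicate 1, at 8.37 against 9.45 to 10.01 in controls. Gstp1, a glutathione transferase, stood at -0.22 and -0.58, with 10.94 in shRNA 2 replicate 3 against 11.87 to 12.66 in controls. The mean difference of -0.40 was -0.18 without that array and -0.57 without control 4.

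Other well-known NRF2 targets were near control. Hmox1, which encodes heme oxygenase 1, stood at -0.06, and Gclc and Gclm, the subunits of the enzyme that limits glutathione synthesis, both at 0.06. Gstm3, a glutathione transferase, was at 7.98, 8.08, 8.37 and 8.08 in controls, 9.14, 9.60 and 9.70 in shRNA 1 livers and 8.44, 7.75 and 8.41 in shRNA 2 livers. The 3 shRNA 1 livers lay above all other arrays. The line difference was 1.28 (standard error 0.20, limma adjusted p = 0.082), short of the threshold. The 8 regulators of the pathway had 0 members past the rule. Nfe2l2, the gene of NRF2, stood at 0.21 (0.18 and 0.25 by line) and Keap1 at 0.12.

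Glutathione transferases of the theta class, Gstt1, Gstt2 and Gstt3, were all above control in both lines. These enzymes couple glutathione to small electrophiles. Gstt1 was at 9.21, 9.54, 9.49 and 9.39 in controls, 10.05, 10.04 and 10.38 in shRNA 1 livers and 9.93, 9.68 and 9.81 in shRNA 2 livers. The groups did not overlap, and the difference was 0.57 (standard error 0.10, adjusted p = 0.17). When limma used a robust prior with an intensity trend, its adjusted p was 0.0488.

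Gstt3 was at 4.82, 5.31, 4.92 and 5.17 in controls, 5.81, 6.44 and 6.56 in shRNA 1 livers and 5.59, 5.33 and 6.09 in shRNA 2 livers. The groups did not overlap, though shRNA 2 replicate 2 lay just above the highest control, and the difference was 0.92 (standard error 0.18, adjusted p = 0.19). Gstt2 was at 5.96, 5.93, 5.68 and 6.40 in controls, 6.68, 6.38 and 6.59 in shRNA 1 livers and 6.67, 6.03 and 7.71 in shRNA 2 livers. Here the groups overlapped, and control 4 and shRNA 2 replicate 3 were the highest of their groups, as they were for female-biased genes. Mgst3, a membrane-bound transferase and peroxidase, stood at 0.50 (0.70 and 0.31 by line). Over the list the median was 0.04, and glutathione reductase (Gsr) stood at 0.02. Members of this family are similar in sequence and were told apart only as the array annotation does. Gstt1 and Gstt3 also belong to the list of genes that the xenobiotic receptors CAR and PXR induce. Of its 19 members 8 were above control in both lines, against 4.10% of all genes tested. The mean level of the list was 0.59 to 0.76 in shRNA 1 livers, 0.10 to 0.65 in shRNA 2 livers and -0.22 to 0.31 in controls. Without Gstt1 and Gstt3 the mean of the other 17 was 0.57 to 0.70, 0.05 to 0.64 and -0.22 to 0.34, and its part in their values was not tested.

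Among the genes that supply NADPH, 1 of 14 was above control in both lines and the median was 0.12. This was Pgd, the phosphogluconate dehydrogenase of the pentose phosphate pathway. It was at 8.02, 8.10, 8.23 and 7.65 in controls, 8.68, 8.56 and 8.63 in shRNA 1 livers and 8.45, 8.57 and 8.05 in shRNA 2 livers. Only shRNA 2 replicate 3 lay within the range of the controls, and the difference was 0.49 (standard error 0.13, adjusted p = 0.318). Me1, the cytosolic malic enzyme, stood at 0.91 for shRNA 1 and -0.03 for shRNA 2, and Idh2, the NADP-linked isocitrate dehydrogenase of mitochondria, at 0.39 and 0.07. G6pdx, a defining gene of this list, and Tkt had no transcript cluster of their own and were not tested.

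Genes whose enzymes produce superoxide or peroxide split, with 2 of 17 above and 2 below in both lines. Maob, a monoamine oxidase of the outer mitochondrial membrane that releases peroxide, was at 9.72, 10.09, 9.95 and 9.96 in controls, 10.18, 10.42 and 10.38 in shRNA 1 livers and 10.19, 10.30 and 10.32 in shRNA 2 livers. All 6 adapted livers lay above all controls, and the difference was 0.37 (standard error 0.09, adjusted p = 0.297). Hao2, a peroxisomal hydroxyacid oxidase that is female-biased in mouse liver, had the largest mean difference of the 480 genes on the higher side. It was at 3.73, 3.50, 3.27 and 5.50 in controls, 6.08, 5.45 and 5.17 in shRNA 1 livers and 3.47, 5.25 and 7.38 in shRNA 2 livers. The groups overlapped widely, with control 4 above 4 adapted livers. The difference was 1.47 with a standard error of 0.64 (adjusted p = 0.569). It was 1.97 without control 4 and 0.96 without shRNA 2 replicate 3, the arrays in which the 11 other female-biased genes were highest within their groups, at 0.78 and 1.89. Their part in the value of Hao2 was not tested.

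Aox3, an aldehyde oxidase, was at 11.87, 11.90, 11.999 and 11.61 in controls, 11.27, 11.62 and 11.54 in shRNA 1 livers and 11.64, 11.65 and 11.30 in shRNA 2 livers. Only control 4 lay within the range of adapted livers, and the difference was -0.34 (standard error 0.11, adjusted p = 0.433). Nox4, an NADPH oxidase that makes peroxide, stood at -0.28 with an adjusted p of 0.739. Without control 1 it stood at -0.13 and without shRNA 1 replicate 1 at -0.17, and it met the rule in neither case. Xdh, xanthine dehydrogenase, stood at 0.64 for shRNA 1 and 0.00 for shRNA 2 (adjusted p of the line difference 0.0971).

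**Figure D3:**
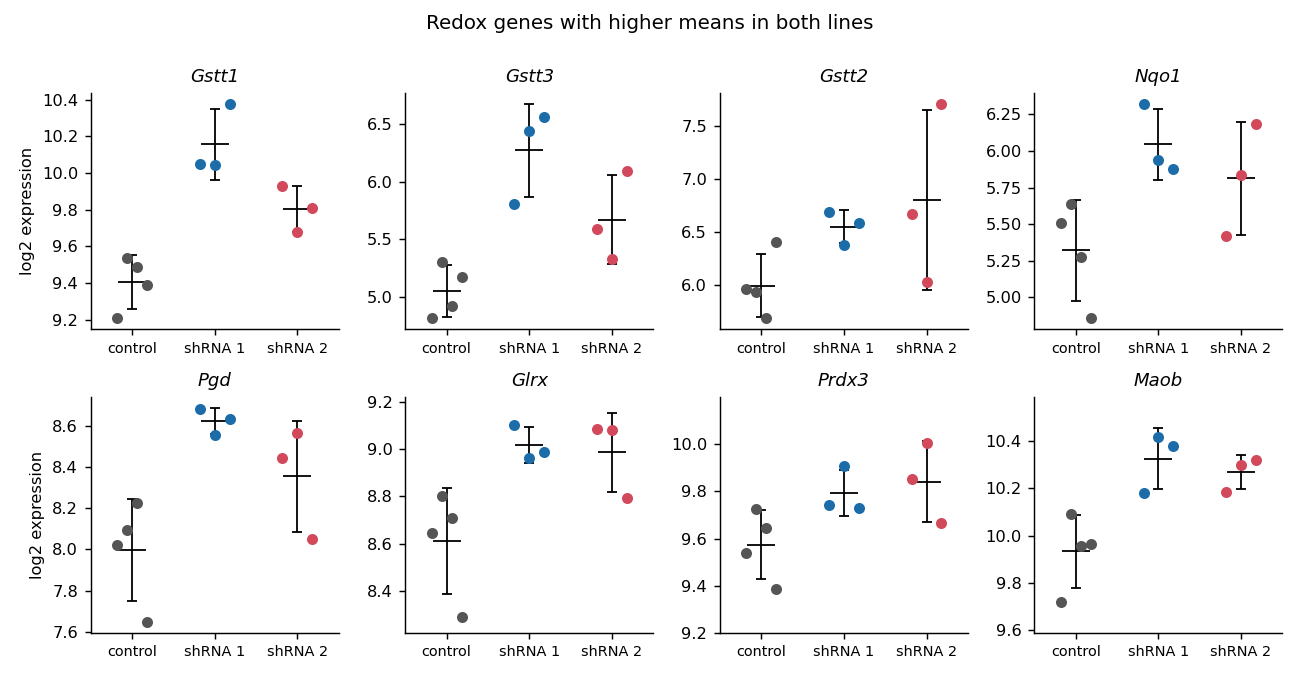
Log2 expression of 8 redox genes in control, shRNA 1 and shRNA 2 livers, where points are single livers, the black mark is the group mean and the bar is the standard deviation (n = 4, 3 and 3). In the panels of Gstt1, Gstt3 and Maob every adapted liver lies above every control, while Gstt2 in shRNA 2 livers runs from 6.03 to 7.71.

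ATF4 targets of the integrated stress response held the largest group of lower members. Of 27 members 7 were below control in both lines and 1 was above, and the median was -0.13. Without control 4 the lower members were 4 (Atf5, Fgf21, Mthfd2 and Nupr1), and Psat1, Slc7a1, Stc2 and the higher member Shmt2 no longer met the rule. With the clock score as a covariate the lower members were 5. This pathway raises amino acid import, serine and one-carbon synthesis when translation is curbed. The mean level of the list was -0.12 to -0.06 in shRNA 1 livers, -0.21 to -0.15 in shRNA 2 livers and -0.09 to 0.19 in controls, where control 4 held the 0.19 and the other controls lay from -0.09 to -0.03.

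Mthfd2, the mitochondrial folate dehydrogenase, was at 4.54, 4.80, 5.15 and 5.85 in controls, 3.69, 4.32 and 4.27 in shRNA 1 livers and 4.33, 4.57 and 4.37 in shRNA 2 livers. Only shRNA 2 replicate 2 reached the lowest control, and the difference was -0.83 (standard error 0.22, adjusted p = 0.345). Psat1, an enzyme of serine synthesis, was at 4.05, 4.39, 4.22 and 4.80 in controls, 3.91, 3.86 and 3.88 in shRNA 1 livers and 3.96, 4.23 and 3.91 in shRNA 2 livers. Again shRNA 2 replicate 2 alone lay among the controls, and the difference was -0.41 (standard error 0.13, adjusted p = 0.433). Both genes were highest in control 4. Without that array Mthfd2 stood at -0.57 and Psat1 at -0.26.

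Atf5, the transcription factor that senses import faults of mitochondria, was at 9.16, 9.33, 9.39 and 9.77 in controls, 8.83, 8.97 and 9.03 in shRNA 1 livers and 8.80, 9.20 and 8.92 in shRNA 2 livers. shRNA 2 replicate 2 alone overlapped with the controls, and the difference was -0.45 (standard error 0.12, adjusted p = 0.345). Without control 4 it was -0.34. Nupr1, a small stress-induced nuclear protein, was at 6.55, 6.43, 6.22 and 6.99 in controls, 6.24, 5.83 and 6.13 in shRNA 1 livers and 5.72, 5.96 and 6.46 in shRNA 2 livers. The groups overlapped, and the difference was -0.49 (standard error 0.17, adjusted p = 0.481).

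Fgf21, a hormone that the stressed or fasted liver secretes, was at 6.02, 7.50, 5.84 and 7.28 in controls, 5.36, 5.22 and 5.60 in shRNA 1 livers and 5.40, 5.89 and 6.82 in shRNA 2 livers. All shRNA 1 livers lay below all controls, and shRNA 2 replicates 2 and 3 lay among them. The difference was -0.94 with a standard error of 0.35 (adjusted p = 0.504), and it ranged from -1.22 to -0.66 over the alternatives. Stc2, a secreted glycoprotein, stood at -0.27 for shRNA 1 and -0.45 for shRNA 2, and Slc7a1, the cationic amino acid transporter, at -0.21 and -0.31. Shmt2, the mitochondrial serine hydroxymethyltransferase that feeds Mthfd2, stood on the opposite side at 0.26 and 0.22. Atf4 itself stood at -0.20, Ddit3, which encodes CHOP, at -0.13, Asns, asparagine synthetase, at -0.08 and Trib3, a pseudokinase, at 0.11, none past the rule.

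Genes that answer unfolded proteins in the endoplasmic reticulum had 4 of 27 members below control in both lines and 0 above, with a median of -0.08. The count was 2 without control 2, 2 without control 3, 1 without shRNA 1 replicate 1 and 2 with the clock score as a covariate, and Syvn1 alone of the 4 met the rule in each of these. A lower mean was found for 22 of the 27, 81.5% against 48.0% of all genes. Syvn1, the ubiquitin ligase that disposes of misfolded proteins, was at 7.25, 7.46, 7.55 and 7.46 in controls, 6.91, 7.17 and 7.15 in shRNA 1 livers and 7.24, 6.76 and 6.78 in shRNA 2 livers. The groups did not overlap, though shRNA 2 replicate 1 lay just below control 1, and the difference was -0.43 (standard error 0.11, adjusted p = 0.344).

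Dnajb9, a co-chaperone of the endoplasmic reticulum, was at 9.03, 9.37, 8.996 and 9.38 in controls, 8.48, 9.09 and 9.31 in shRNA 1 livers and 8.87, 8.80 and 8.68 in shRNA 2 livers. The shRNA 2 livers lay below all controls and the shRNA 1 livers overlapped with them, and the difference was -0.32 (standard error 0.15, adjusted p = 0.604). Without control 2, control 4 or shRNA 1 replicate 1 (at -0.20 in the last), Dnajb9 did not meet the rule. Creld2, a secreted chaperone, stood at -0.22 and -0.34, with a mean of -0.28 that was -0.17 without control 2, and Wfs1, the wolframin of the reticulum membrane, at -0.23 in both lines. Wfs1 was highest in control 3, at 6.87 against 6.43 to 6.50 in the other controls, and without that array its mean difference of -0.23 was -0.13. Hspa5, which encodes the chaperone BiP, stood at -0.11 and was in neither direction in both lines by the rule.

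**Figure D4:**
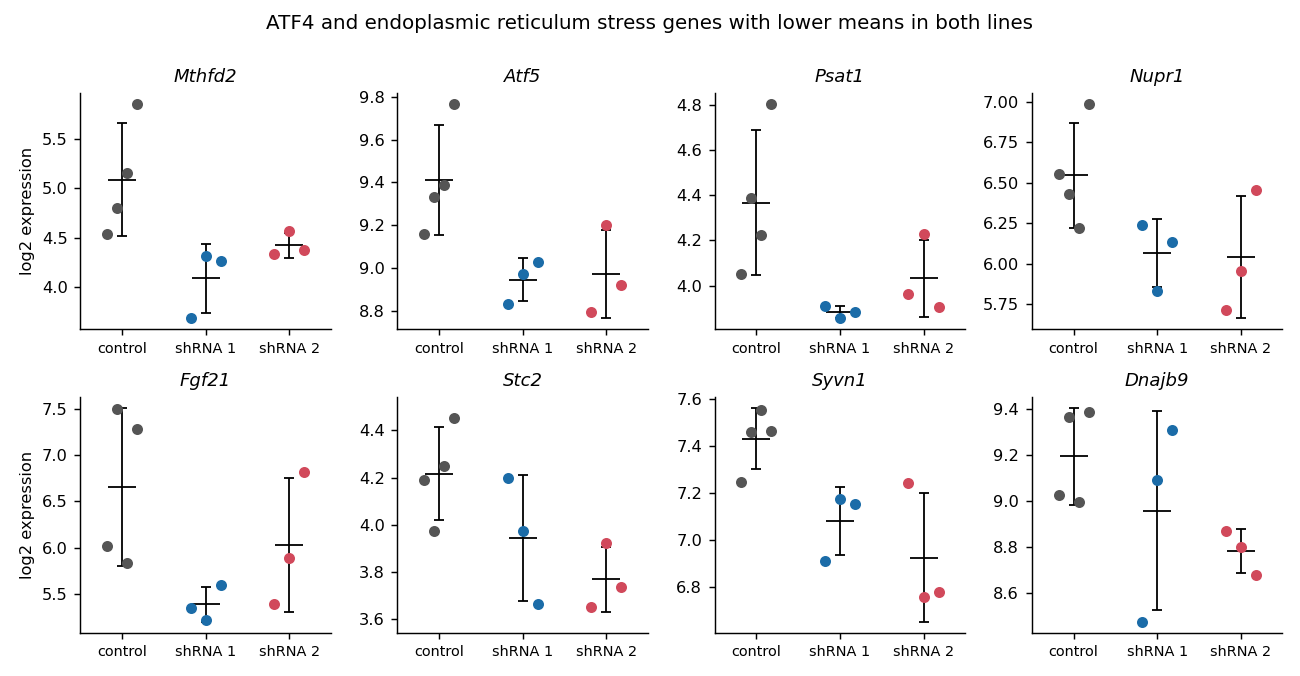
Log2 expression of 6 ATF4 targets and 2 endoplasmic reticulum stress genes in control, shRNA 1 and shRNA 2 livers, with points for single livers, a black mark for the group mean and a bar for the standard deviation (n = 4, 3 and 3). Every panel has lower means in both lines, and the groups are apart in the Syvn1 panel alone. Control 4 is the highest control for Mthfd2, Psat1, Atf5, Nupr1 and Stc2, and narrowly for Dnajb9 (9.38 against 9.37 in control 2).

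The stretch before the start of 4 of these lower genes is shown because each holds the letters of the response element of its own pathway. The sequences are the 250 bases before the annotated start in RefSeq, on build GRCm38.p6, printed in the direction of transcription with the match in capitals. In Fgf21 (chr7:45615491-45615740, minus strand) and Nupr1 (chr7:126625471-126625720, minus strand) the capitals mark TGATGNAA, the element bound by ATF4 with a C/EBP protein, read on the opposite strand. In Creld2 (chr15:88819396-88819645, plus strand) the capitals mark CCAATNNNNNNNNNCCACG, the endoplasmic reticulum stress element bound by ATF6 with NF-Y, on the opposite strand. In Syvn1 (chr19:6046326-6046575, plus strand) they mark the same element on the printed strand.
Fgf21: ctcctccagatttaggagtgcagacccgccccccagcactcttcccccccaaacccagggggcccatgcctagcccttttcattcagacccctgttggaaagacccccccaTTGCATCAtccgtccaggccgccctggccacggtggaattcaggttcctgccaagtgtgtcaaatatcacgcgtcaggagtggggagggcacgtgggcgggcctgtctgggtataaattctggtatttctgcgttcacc
Nupr1: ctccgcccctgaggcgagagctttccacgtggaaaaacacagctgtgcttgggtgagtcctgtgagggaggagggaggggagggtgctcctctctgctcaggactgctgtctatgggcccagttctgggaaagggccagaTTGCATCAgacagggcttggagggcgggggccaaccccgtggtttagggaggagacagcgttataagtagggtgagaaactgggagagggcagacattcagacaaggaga
Creld2: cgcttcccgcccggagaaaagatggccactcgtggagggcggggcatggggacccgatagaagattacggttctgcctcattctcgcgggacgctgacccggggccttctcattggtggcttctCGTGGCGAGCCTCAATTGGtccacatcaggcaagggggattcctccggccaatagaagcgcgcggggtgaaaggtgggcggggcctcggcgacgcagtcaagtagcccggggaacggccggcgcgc
Syvn1: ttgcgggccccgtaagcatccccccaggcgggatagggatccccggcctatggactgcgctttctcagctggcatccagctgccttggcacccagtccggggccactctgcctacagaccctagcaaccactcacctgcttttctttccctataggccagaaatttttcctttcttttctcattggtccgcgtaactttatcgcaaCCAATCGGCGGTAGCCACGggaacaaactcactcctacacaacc

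These motifs were searched on both strands in windows of 300 bases, 250 before and 50 after the start, which the RefSeq table holds for 10420 of the 13308 genes tested. TGATGNAA was in 2.93% of these genes, in 6 of 22 ATF4 list members with a window and in 2 of the 7 lower ones. It was also in 1 of the 27 higher stress genes with a window, G6pc. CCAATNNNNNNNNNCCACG was in 0.173% of the genes, 18 in all, of which 10 are in the endoplasmic reticulum list, and in 2 of its 4 lower members. The core of the antioxidant response element bound by NRF2, TGACNNNGC, was in 16.6% of the genes and in 5 of the 27 higher stress genes with a window. Of those 5 only Pgd is on the NRF2 list. The core was also in 2 of the 19 lower stress genes with a window, the ATF4 targets Slc7a1 and Stc2. A match describes letters in a window and does not show binding.

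Other proteotoxic and damage responses had few members past the rule. Mitochondrial chaperones and proteases had 0 of 18 above and 1 below, which is Atf5, and the chaperonin Hspd1 stood at -0.04 and the protease Lonp1 at -0.02. The heat shock response had 0 in either direction of 18. The inducible chaperone Hspa1b stood at 0.08 for shRNA 1 and -0.94 for shRNA 2, where shRNA 2 replicate 3 was at 5.87 against 6.95 to 8.13 in controls. Oxidative DNA damage repair had 0 of 16 in either direction, with the 8-oxoguanine glycosylase Ogg1 at -0.08, and the proteasome 0 of 34. p53 targets had 0 of 21 above and 1 below, which is Btg2, an antiproliferative gene that is also an immediate early gene. The p53 target Cdkn1a, a cell cycle inhibitor, ran from 6.16 to 8.73 in controls, from 7.84 to 9.02 in shRNA 1 livers and from 6.02 to 7.96 in shRNA 2 livers.

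Among immediate early genes, 1 of 24 was above and 2 were below control in both lines. Gadd45b, a growth arrest gene, stood at 0.46 and 0.20, and Egr1, a zinc finger transcription factor, at -0.45 and -0.47 with values from 5.70 to 6.70 in controls and from 5.12 to 6.55 in adapted livers. The mean difference of Egr1 was -0.46, and -0.31 without control 2. Without shRNA 2 replicate 1 it was -0.30, and Egr1 no longer met the rule in both lines. Dusp1, the phosphatase that turns off MAP kinases and a glucocorticoid target, was the stress gene whose lines parted. It was at 8.10, 7.96, 8.04 and 8.37 in controls, 8.67, 8.37 and 8.43 in shRNA 1 livers and 7.57, 7.54 and 7.40 in shRNA 2 livers. The shRNA 2 livers lay below every control, and of the shRNA 1 livers replicates 1 and 3 lay above every control. The difference of shRNA 1 minus shRNA 2 was 0.99 (standard error 0.13, limma adjusted p = 0.035). In that comparison 2 genes passed of all genes tested, Ctse and Dusp1, which is 0.0150%.

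The Dusp1 call held in 9 of 20 alternatives. Over all 20 the difference lay between 0.90 and 1.05 and the adjusted p between 0.00722 and 0.169. It was lost without any 1 of controls 1, 2 and 3 (adjusted p of 0.0581, 0.0514 and 0.0575). It was also lost without any 1 of the shRNA 1 replicates 1, 2 and 3 (0.122, 0.109 and 0.0875) or the shRNA 2 replicates 1, 2 and 3 (0.169, 0.142 and 0.139). The adjusted p was 0.0555 with quantile normalization and 0.116 with the clock score as a covariate, so the call was lost in these as well. None of the 50 genes of both lines passed in the test between the lines.

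**Figure D5:**
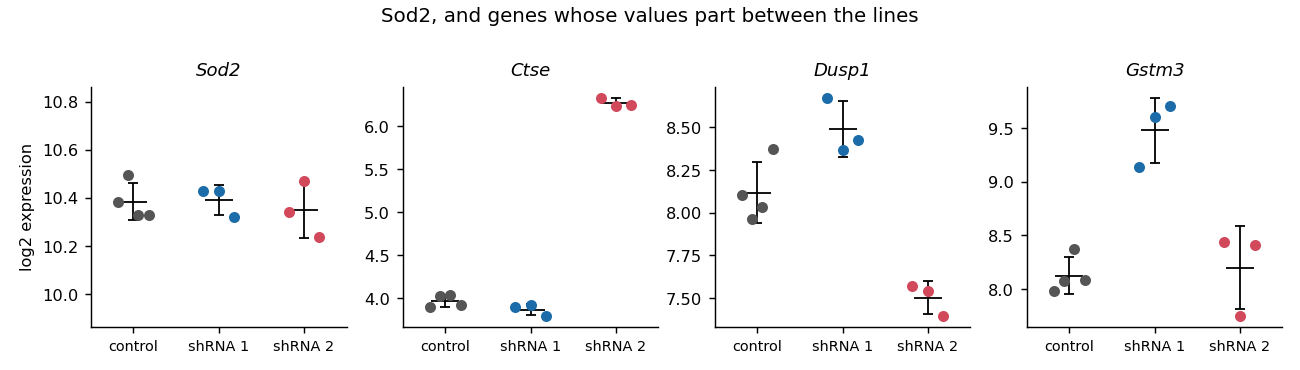
Log2 expression of Sod2 and of Ctse, Dusp1 and Gstm3 in control, shRNA 1 and shRNA 2 livers, with points for single livers, a black mark for the group mean and a bar for the standard deviation (n = 4, 3 and 3). Sod2 lies between 10.24 and 10.49 in all 10 livers, Ctse is high in the 3 shRNA 2 livers alone, and Dusp1 and Gstm3 are higher in shRNA 1 than in shRNA 2 livers.

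Targets of FOXO and glucocorticoid signalling had 4 of 24 above control in both lines and 0 below. The median was 0.05, but 0.23 for shRNA 1 and -0.07 for shRNA 2. The mean level of the list was 0.12 to 0.48 in shRNA 1 livers, -0.18 to 0.02 in shRNA 2 livers and -0.14 to 0.07 in controls, and the median was -0.0055 without shRNA 1 replicate 1 and 0.12 without control 2. Ppargc1a, which encodes the coactivator PGC-1 alpha of mitochondrial biogenesis and gluconeogenesis, was at 6.61, 6.77, 6.38 and 6.57 in controls, 7.55, 7.49 and 7.22 in shRNA 1 livers and 6.72, 6.77 and 7.28 in shRNA 2 livers. The shRNA 1 livers lay above all controls, and shRNA 2 replicates 1 and 2 lay at their upper end. The difference was 0.59 (standard error 0.13, adjusted p = 0.264). Sgk1, a kinase induced by glucocorticoids, was at 5.48, 5.50, 5.48 and 5.17 in controls, 6.09, 5.91 and 5.92 in shRNA 1 livers and 5.76, 5.54 and 5.77 in shRNA 2 livers. The groups did not overlap, and the difference was 0.43 (standard error 0.09, adjusted p = 0.264).

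G6pc, which encodes the enzyme that releases glucose from the liver, was at 10.78, 11.05, 10.84 and 11.60 in controls, 12.11, 11.50 and 11.62 in shRNA 1 livers and 11.55, 11.77 and 11.32 in shRNA 2 livers. Control 4 lay among the adapted livers and the other controls lay below them. The difference was 0.58 (standard error 0.17, adjusted p = 0.431), and 0.75 without control 4. Per1, a clock gene that glucocorticoids induce, stood at 0.48 and 0.29, with an adjusted p of 0.677. Its mean difference of 0.38 was 0.24 without control 3, 0.23 without shRNA 1 replicate 1 and 0.29 without shRNA 2 replicate 1. In none of these did Per1 meet the rule, as the limit applies to each line. Of the 4, Ppargc1a did not meet the rule without shRNA 2 replicate 3, with a mean difference of 0.50. Without control 4 and shRNA 2 replicate 3 together, neither Ppargc1a nor Sgk1 met it (0.50 and 0.33). With the clock score as a covariate, Sgk1 and Per1 did not (0.39 and 0.28). These are means of both lines, and the limit of 0.2 applies to each line. The list of PGC-1 and mitochondrial biogenesis genes had Ppargc1a alone past the rule, 1 of 20, and a median of -0.04. Without shRNA 2 replicate 3 the list had 0 of 20 past it. Tfam, the packaging protein of mitochondrial DNA, was among the members short of the rule.

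Interferon-stimulated genes, which answer viral RNA and DNA, had 5 of 27 members above control in both lines and 0 below. The count was 9 without shRNA 2 replicate 3, 4 without control 4 and 8 with the clock score as a covariate. The median was 0.16, and 0.26 for shRNA 1 and 0.04 for shRNA 2, and lay between 0.10 (without shRNA 2 replicate 2) and 0.22 (without shRNA 2 replicate 3) on leaving out each array. A higher mean was found for 22 members, 81.5% against 52.0% of all genes, and 9 had an unadjusted p under 0.05 on the higher side. The mean level of the list was 0.21 to 0.39 in shRNA 1 livers, -0.15 to 0.19 in shRNA 2 livers and -0.14 to 0.12 in controls, so shRNA 1 livers lay above all controls and shRNA 2 livers overlapped with them.

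Oasl2, an antiviral sensor of double-stranded RNA, was at 5.85, 5.55, 5.63 and 5.66 in controls, 6.30, 6.10 and 6.16 in shRNA 1 livers and 6.13, 5.97 and 5.80 in shRNA 2 livers. Only shRNA 2 replicate 3 lay within the controls, and the difference was 0.40 (standard error 0.09, adjusted p = 0.264). Usp18, which removes ISG15 from proteins and damps interferon signals, was at 6.90, 7.57, 7.88 and 7.07 in controls, 8.11, 8.35 and 7.80 in shRNA 1 livers and 8.33, 8.02 and 7.05 in shRNA 2 livers. Controls 2 and 3 stood above the other controls, and the groups overlapped, with a difference of 0.59 (standard error 0.25, adjusted p = 0.569).

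Ifit2, which binds viral RNA, stood at 0.29 and 0.32 by line with all 6 adapted livers above all controls. Its level was 4.22 to 4.38 in controls and 4.48, 4.42 and 4.98 in shRNA 2 livers, not far above the filter at 3.98. Without shRNA 2 replicate 3 its mean difference was 0.22 and Ifit2 no longer met the rule. Ifih1, which encodes the RNA sensor MDA5, stood at 0.29 in both lines but at 0.19 without control 4, where it no longer met the rule, and Gbp7, a guanylate-binding protein, at 0.47 and 0.29. Xaf1, an interferon-induced regulator of cell death, stood at 0.68 for shRNA 1 and 0.12 for shRNA 2, and Stat2, which carries the interferon signal, on the lower side at -0.20 and -0.28. Immune cell markers gave the following values beside this list: 13 macrophage markers had a mean level of -0.09 to 0.15 in controls, -0.04 to 0.16 in shRNA 1 livers and -0.01 to 0.34 in shRNA 2 livers. For 5 T and NK cell markers of 13 listed the ranges were -0.15 to 0.09, 0.17 to 0.26 and -0.03 to 0.33. Their part in the interferon genes was not tested, and in whole tissue fewer cells of a type and less RNA per cell cannot be told apart.

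Inflammatory NF-kB genes had 0 of 18 past the rule, with the inhibitor Nfkbia at 0.11. Acute phase proteins, which the inflamed liver secretes, had 1 of 20 above and 2 below, and 18 of 20 had a lower mean. The median was -0.19, and -0.29 for shRNA 1 and -0.04 for shRNA 2. It was -0.32 without control 4, -0.08 without control 2 and -0.11 without shRNA 2 replicate 3, and the count below was 8, 0 and 1 in these. Saa2, a serum amyloid that varies over a wide range with inflammation, was at 11.76, 12.27, 9.69 and 7.20 in controls, 7.51, 6.90 and 7.49 in shRNA 1 livers and 10.58, 11.12 and 7.09 in shRNA 2 livers. Control 4 was as low as the shRNA 1 livers, and 2 shRNA 2 livers were as high as controls, so the difference of -1.78 had a standard error of 0.96 (adjusted p = 0.649). It was -2.79 without control 4, -1.10 without control 2 and -1.15 without shRNA 2 replicate 3. Steap4, a metalloreductase, stood at -0.45 and -0.32, with a mean of -0.38 that was -0.22 without control 2, and Apcs, serum amyloid P, at -0.76 and -0.19.

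Metal, iron and heme genes had 2 of 22 above and 2 below. Mt1, a metallothionein that binds zinc and copper, was at 10.55, 10.40, 9.95 and 10.19 in controls, 10.24, 9.40 and 9.34 in shRNA 1 livers and 9.99, 9.64 and 10.54 in shRNA 2 livers. The groups overlapped, and the difference was -0.42 (standard error 0.21, adjusted p = 0.621). Hamp, the iron hormone hepcidin, ran from 11.13 to 12.64 in controls and from 11.63 to 12.85 in adapted livers, and its paralog Hamp2 from 9.02 to 9.63 and from 8.85 to 11.01. The direction of both hung on a single array: Hamp stood at 0.26 and at -0.02 without control 2, and Hamp2 at 0.33 and at -0.01 without shRNA 2 replicate 3.

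Autophagy and mitophagy had 1 of 29 above control in both lines and 0 below. This was Retreg1, the receptor that delivers sheets of endoplasmic reticulum to autophagy. Its level was 8.89, 9.01, 9.13 and 8.84 in controls, 9.74, 9.59 and 9.41 in shRNA 1 livers and 9.43, 9.59 and 9.39 in shRNA 2 livers. The groups did not overlap, and the lowest adapted liver stood well clear of the highest control. The difference was 0.56 (standard error 0.09, adjusted p = 0.17), 0.61 and 0.50 by line, and it lay between 0.52 and 0.61 over the alternatives. When limma used a robust prior with an intensity trend, its adjusted p was 0.0471. The autophagy adaptor Sqstm1 stood at -0.04 and Map1lc3b, which encodes LC3B, at 0.07.

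Cell death regulators had 1 of 26 above and 0 below, which is Casp6, an executioner caspase, at 0.32 and 0.38, with 7.33 to 7.62 in controls and 7.59 to 8.12 in adapted livers. Hypoxia genes had 2 of 20 above and 0 below, although 14 of 20 had a lower mean and the median was -0.06, and -0.0072 without control 4. Adm, the vasodilator adrenomedullin, was at 4.19, 4.20, 4.17 and 4.15 in controls, 4.61, 4.42 and 4.67 in shRNA 1 livers and 4.65, 4.29 and 4.38 in shRNA 2 livers. The controls were nearly equal and all adapted livers lay above them, with a difference of 0.33 (standard error 0.09, adjusted p = 0.353). These levels are not far above the filter at 3.98. Without shRNA 2 replicate 1 the difference was 0.27 and Adm did not meet the rule. Pdk1, the kinase that closes pyruvate entry to mitochondria, stood at 0.21 with the groups apart, and Vegfa, a growth factor of blood vessels, at -0.13.

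Outside the stress lists, the genes with the smallest p among those of both lines are given as values. On the higher side Acss2, which makes acetyl-CoA from acetate, was at 9.48, 9.74, 9.74 and 9.78 in controls, 10.46, 10.45 and 10.42 in shRNA 1 livers and 10.01, 9.95 and 9.88 in shRNA 2 livers. The 3 groups were apart in that order from high to low: shRNA 1, shRNA 2, control. The difference was 0.51 (standard error 0.08, adjusted p = 0.158), and that between the lines was 0.50 (adjusted p = 0.255). Papss2, which makes the sulfate donor, stood at 0.73 and 0.45, Dhrs7, a short-chain dehydrogenase, at 0.64 and 0.46, and Acly, which makes acetyl-CoA from citrate, at 0.78 and 0.38. Aqp8, a channel for water that also passes peroxide, stood at 1.01 and 0.43, and Arrdc4, an arrestin-like gene of the glucose response, at 0.27 and 0.69. Fasn, fatty acid synthase, stood at 0.73 and 0.38, Trim12a at 0.75 and 0.30 and the steroid dehydrogenase Akr1c18 at 1.19 and 1.47. Of 21 genes of acetyl-CoA and fatty acid synthesis 7 were above control in both lines, and of 19 of cholesterol synthesis 6, against 4.10% of all genes.

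On the lower side the pseudogene Adh6-ps1 of the alcohol dehydrogenase family was at 9.52, 9.85, 10.13 and 10.03 in controls, 8.80, 9.06 and 9.05 in shRNA 1 livers and 9.21, 8.78 and 8.85 in shRNA 2 livers. The groups did not overlap, and the difference of -0.93 (standard error 0.13) had an adjusted p of 0.0924. Wdfy1, an endosomal adaptor, was at 5.36, 5.95, 6.10 and 5.88 in controls and between 5.10 and 5.24 in the 6 adapted livers, which were close to each other. Mup21, a major urinary protein, stood at -1.32 and -1.19, and Tspan33, a tetraspanin of red cell precursors, at -0.82 and -0.33. Cdc34 and Ube2s, ubiquitin-conjugating enzymes, stood at -0.47 and -0.42 as means of both lines. Scara5, a ferritin receptor, was at -0.57, the protein disulfide isomerase homolog Pdilt at -0.53 and Atp5g1, a ring subunit of the ATP synthase, at -0.40. Dhx37, an RNA helicase, stood at -0.42, Gigyf1 at -0.35 and the noncoding RNA Snhg12 at -0.36. Male-biased liver genes had 10 of 17 members below control in both lines and 0 above, and female-biased genes 7 of 12 above and 0 below. Of all genes tested 2.95% were below and 4.10% above by this rule.

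The set of stress genes that met the rule on both lines moved with every array left out. Of the 50, between 38 and 47 met it again without any 1 array, with 38 without control 1 and 38 without shRNA 2 replicate 3. The 8 lost without control 4 were Ces2g, Dnajb9, Ifih1, Prdx3, Psat1, Shmt2, Slc7a1 and Stc2. Without control 4 and shRNA 2 replicate 3 together, 50 stress genes met the rule, of which 35 were among the 50. The 15 lost were those 8 with Gstm4, Hamp, Hamp2, Ifit2, Nqo1, Ppargc1a and Sgk1. With the clock score as a covariate 51 met it, of which 39 were among the 50, and the 11 lost were Btg2, Creld2, Gadd45b, Hamp, Hamp2, Osgin1, Per1, Psat1, Sgk1, Slc7a1 and Wfs1.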

How the data were processed

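RNA of 10 mouse livers was hybridised to Affymetrix mouse gene 2.0 ST arrays. The authors deposited log2 expression values per transcript cluster, made with Affymetrix Expression Console per the submitters' processing notes. Its version and the background correction, normalization and build behind the values are not given in sources used here. Values ran from 1.4 to 13.8.

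Clusters were named from the platform annotation: of 41345 clusters, 23521 had 1 symbol, 1814 several and 16010 none. Where a gene had several clusters (1082 genes), that with the highest mean was kept. Genes with a mean under log2 3.98, the 40th percentile, were not tested. No pair of arrays was identical.

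The deposited log2 values were fitted with limma 3.58.1 in R 4.3.3, with 3 groups in 1 fit and no covariate. Contrasts were adapted minus control, each line minus control and shRNA 1 minus shRNA 2. p-values are two-sided, with Benjamini-Hochberg adjustment over the 13308 genes tested and a threshold of 0.05. Differences are on the log2 scale. The pipeline was tested on simulated data. Figures were drawn with matplotlib 3.10.9 in Python 3.11.15.

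A list's level in an array is the mean of its members minus the control mean. The members and lists were chosen with earlier results of these data known. Named genes are Sod2, genes past the adjusted threshold, the 12 higher and 12 lower genes of both lines with the smallest unadjusted p, and up to 4 members of each stress list of both lines, with up to 2 whose lines differ and the defining genes of each list. Other genes named were chosen after their values were seen.

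Alternatives were quantile normalization, median centring, other level filters, the mean of a gene's clusters, a robust prior with an intensity trend, array weights, the replicate number as a block, adapted livers as a single group, other limits, a clock score as covariate, and arrays left out.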

Additional observations from a re-analysis of the deposited data

Results flagged for a closer look

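Ctse, the cathepsin E gene, differed between the lines: shRNA 1 minus shRNA 2 was -2.40 (limma adjusted p = 8.72e-08), with all 3 shRNA 2 livers above all 3 shRNA 1 livers. It stayed past the threshold in 19 of 19 alternatives in which it was tested. Dusp1, the MAP kinase phosphatase gene, differed the other way at 0.99 (limma adjusted p = 0.035), with all 3 shRNA 1 livers above all 3 shRNA 2 livers, and stayed past the threshold in 9 of 20 alternatives. The lines were different cohorts, so hairpin and cohort cannot be told apart for either gene.

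In 4 of 88 genes and lists checked, 1 control lay far from the other controls. Chance gives such a value in about 1 of 20 groups. Acss2 was at 9.48 in control 1 against 9.74 to 9.78 in the others. Dhrs7 was at 6.16 in control 4 against 6.30 to 6.32. Sgk1 was at 5.17 in control 4 against 5.48 to 5.50. Wfs1 was at 6.87 in control 3 against 6.43 to 6.50. Each of these 4 controls lay on the side away from the adapted livers, so each enlarged its gene's difference.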

How the results depend on the processing

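The count of genes past the adjusted threshold, 1 (Ctse), was 3 without control 4 and shRNA 2 replicate 3 together, 0 with adapted livers as a single group (Ctse 1.10, adjusted p = 0.626), 2 at an adjusted p of 0.1, 6 with an intensity trend and robust prior (Acss2, Adh6-ps1, Gstt1, Papss2 and Retreg1 besides Ctse) and 0 with the filter at the 60th percentile, which leaves Ctse out. It was 1 to 3 without each array, with 3 without control 1 and 2 without control 4. Lower genes at an unadjusted p under 0.05 were 467, 284 with median centring and 756 without a level filter. Genes past the threshold between the lines were 2, then 5 without both arrays, 6 with array weights, 7 with the trend, 4 with median centring, 4 with the replicate block, 1 each with the clock covariate, the filter at the 60th percentile and quantile normalization, and 1 to 4 without each array. The stress genes of both lines, 30 higher and 20 lower, were 165 and 141 at any size, 14 and 10 at a limit of 0.3, and 24 to 36 and 19 to 26 without each array. Non-overlapping stress genes, 8 above and 4 below, were 30 and 15 without both arrays and 9 to 23 and 4 to 11 without each array. Those below were 1 with median centring. The matching share over all genes was not counted in these settings. Sod2 changed sign around zero, at 0.00028 with the clock covariate, 0.0187 with median centring and -0.0423 to 0.0242 without each array (above zero without control 2, shRNA 1 replicate 3 or shRNA 2 replicate 3). Without each array Hamp was -0.0238 (without control 2) to 0.478 and Hamp2 -0.0095 (without shRNA 2 replicate 3) to 0.531. Some list medians moved: all stress genes were 0.0421 with median centring, and hypoxia genes -0.0072 with the replicate block and -0.0634 to -0.0072 without each array. NADPH supply was 0.0645 without both arrays, 0.152 with median centring, 0.0914 without a level filter, 0.0928 with the replicate block and 0.0924 to 0.139 without each array. DNA damage repair was 0.0142 with the filter at the 60th percentile, PGC-1 genes -0.0095 with the clock covariate and -0.0693 to 0.0036 without each array, and producers of superoxide and peroxide -0.0221 to 0.0561 without each array. Without each array, medians also ran from -0.319 to -0.0843 for acute phase proteins, 0.0981 to 0.218 for interferon genes, 0.0278 to 0.143 for NF-kB genes and 0.0245 to 0.078 for glutathione genes, and crossed zero for FOXO and glucocorticoid targets (-0.0055 to 0.115), p53 targets (-0.073 to 0.0614), the proteasome (-0.045 to 0.0498), heat shock (-0.0497 to 0.0343), autophagy (-0.0244 to 0.0223), mitochondrial chaperones (-0.0083 to 0.0228) and all stress genes (-0.0034 to 0.027). The cause was not tested. Of the comparisons of single named genes, 1322 kept direction and side of the threshold, 9 newly passed it, 1 no longer did and 2 changed direction. Arrays of different groups with equal replicate numbers had correlations of -0.25 to 0.27 over 9 pairs, after the group means were taken out. Pairs with unequal numbers were not compared, so whether equal numbers mark shared samples was not tested. With the replicate block 1 gene passed, Ctse at 1.08 (adjusted p = 0.00931), and 56 stress genes met the rule, 42 of them among the 50.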
